A study of Mus musculus with 36 samples.

Results

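The genes described here are 9 snoRNA host genes, Gas5, Snhg1, Snhg3, Snhg6, Snhg8, Snhg11, Snhg12, Snhg14 and Snhg20. They were chosen by symbol, and all 9 were found among the 55487 gene rows of the count table. A snoRNA host gene is transcribed as a long RNA whose introns hold small nucleolar RNAs. After splicing, box C/D snoRNAs guide ribose methylation and box H/ACA snoRNAs guide pseudouridylation, mostly of ribosomal RNA. The spliced exons of several noncoding hosts are removed by nonsense-mediated decay, and some hosts begin with the pyrimidine run of a 5′ TOP transcript, the start that ribosomal protein mRNAs carry. Gas5 RNA has been reported to bind the glucocorticoid receptor as a decoy, and Snhg14 is a long neuronal RNA of an imprinted region that runs antisense through Ube3a.

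The cultures were C57EDCX cells, dissociated from mouse cortex at embryonic day 18 and bought from a supplier. Control cultures received fresh medium, DEX cultures 1 µM dexamethasone, a glucocorticoid receptor agonist, and DEX+RU486 cultures 1 µM dexamethasone with 1 µM of the receptor antagonist mifepristone, each for 72 h. There were 12 RNAseq libraries in each of the 3 groups, with 6 of each in each of 2 labelled batches, and each library carried an RNA integrity number (RIN). No group was given RU486 alone. The paper describes 12 experimental replicates in each group. Nothing in the labels says that libraries came from separate cultures or animals, so p-values measure only the spread between these libraries. In bulk RNA, fewer cells of a type and less RNA per cell cannot be told apart.

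Libraries held between 12.1 and 82.4 M counts. In batch 1 the control libraries were deeper (24.2 to 82.4 M) and of higher RIN (7.8 to 9.2) than the DEX libraries (12.1 to 22.3 M, RIN 3.9 to 7.8), and the DEX+RU486 libraries were at the low end of the control ranges or below them (17.4 to 26.7 M, RIN 5.6 to 7.9), so depth and RIN cannot be told apart from either treatment in that batch. The RIN was 1.4 to 2.7 in 6 libraries of batch 2, 2 from each treatment, and 7.4 to 8.7 in the other 12. Batch 1 held 2 further libraries under 6, DEX library 12 (RIN 3.9) and DEX+RU486 library 18 (RIN 5.6). Results are therefore given for all 36 libraries and for the 28 of RIN 6 or above. The 8 neuronal markers summed to between 1830 and 3219 CPM in those 28 libraries, none of them at 0 throughout, and the 5 microglial markers to between 0.0990 and 2.60 CPM.

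The hosts lie on 7 chromosomes of GRCm38, here with GENCODE M21 coordinates. Gas5 (ENSMUSG00000053332) spans chr1:161034422-161038539 on the plus strand and Snhg6 (ENSMUSG00000098234) chr1:9941959-9944118 on the minus strand. Snhg12 (ENSMUSG00000086290, plus) spans chr4:132308623-132311024 and Snhg3 (ENSMUSG00000085241, minus) chr4:132348014-132353686. Snhg1 (ENSMUSG00000108414, plus) spans chr19:8723475-8726443, Snhg8 (ENSMUSG00000104960, minus) chr3:123507552-123508404, and Snhg20 (ENSMUSG00000086859, plus) chr11:117076008-117078955. Snhg11 (ENSMUSG00000044349, plus), which the annotation lists as protein coding, spans chr2:158375638-158386145. Snhg14 (ENSMUSG00000100826, minus) is the longest, at chr7:59307924-59975759.

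The start sites are shown because a pyrimidine run at the first base is the sequence that marks a 5′ TOP transcript. Each window holds 30 bases before and 30 bases from the RefSeq start on GRCm38.p6, read along the gene's strand, with the unbroken run of C and T over the first base in capitals.
Gas5, start in the host exons, chr1:161035136-161035195 (+): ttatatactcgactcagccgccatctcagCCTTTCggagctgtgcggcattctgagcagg
Snhg8, chr3:123508307-123508366 (-): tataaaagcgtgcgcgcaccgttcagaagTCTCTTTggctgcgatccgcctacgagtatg
Snhg12, chr4:132308648-132308707 (+): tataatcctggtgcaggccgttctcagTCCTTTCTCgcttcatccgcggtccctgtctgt
Snhg1, chr19:8723457-8723516 (+): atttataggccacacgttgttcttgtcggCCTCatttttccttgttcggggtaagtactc
Snhg11, chr2:158375683-158375742 (+): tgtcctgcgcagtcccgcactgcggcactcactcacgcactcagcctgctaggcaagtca
Snhg20, chr11:117076753-117076812 (+): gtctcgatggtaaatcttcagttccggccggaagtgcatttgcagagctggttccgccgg
The run was 6 bases long at the downstream Gas5 start, 7 at Snhg8, 9 at Snhg12 and 4 at Snhg1. Each of these runs began before the first base, which was C at Gas5, Snhg8 and Snhg1 and T at Snhg12. There was no C or T at the first base of Snhg11, Snhg20, Snhg3 or Snhg14, nor at the upstream Gas5 start. Snhg6 was not in the RefSeq promoter table, and its GENCODE M21 transcripts begin at several places, with runs of 7, 6, 1, 0 and 0 bases, and the one with the run of 7 is shown.
Snhg6, first bases of that transcript: CTTTCTCggcagcgccgtagagcgcgagca
A run of 5 or more bases was present at 10.1% of the 32851 mouse promoters in the table, so these letters alone are common. The search found it at only 28.8% of the 73 ribosomal protein gene promoters, whose mRNAs carry a 5′ TOP start. A start without the run therefore does not show that a host is outside that class. The core hexamer bound by the glucocorticoid receptor was searched as AGAACA on both strands from 250 bases before to 50 after each start. It was present in 19% of all promoters and, among the hosts, only in that of Snhg1, on the other strand and 13 bases before the start. The palindromic form, AGAACA then any 3 bases then TGTTCT, was present in 0.00913% of all promoters and in none of the hosts. The RefSeq start of Snhg14 lies outside the GENCODE span, so its window does not describe the counted exons.

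The snoRNAs carried by the hosts are shown with the letters of their class. Which RNA each of them guides, and whether it is ribosomal RNA, was not examined. The annotation placed 237 snoRNA genes inside the hosts on the same strand, 10 in Gas5, 8 in Snhg1, 5 in Snhg12, 2 each in Snhg3 and Snhg11, 1 each in Snhg6 and Snhg8, none in Snhg20 and 208 in Snhg14. Capitals mark TGATGA and CTGA, the C and D box letters, or ACA before the end of an H/ACA snoRNA.
Gas5, Gm22357, chr1:161036057-161036139 (+): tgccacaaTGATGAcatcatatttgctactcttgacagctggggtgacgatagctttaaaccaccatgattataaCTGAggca
Gas5, Snord47, chr1:161038082-161038158 (+): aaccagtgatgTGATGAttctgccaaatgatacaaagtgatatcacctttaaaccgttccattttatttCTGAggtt
Snhg8, Snora24, chr3:123507937-123508066 (-): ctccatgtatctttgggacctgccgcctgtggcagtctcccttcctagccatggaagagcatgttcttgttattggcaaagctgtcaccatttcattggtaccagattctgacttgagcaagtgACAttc
Snhg14, 33 copies between 59393561 and 59617690 of chromosome 7: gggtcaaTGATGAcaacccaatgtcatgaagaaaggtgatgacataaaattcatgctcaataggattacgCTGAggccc
Snhg14, 30 copies between 59678509 and 59902306 of chromosome 7: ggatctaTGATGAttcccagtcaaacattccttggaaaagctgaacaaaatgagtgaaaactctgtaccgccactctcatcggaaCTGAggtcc
The 208 snoRNA genes of Snhg14 had 85 different sequences, and 24 of these were present in more than 1 copy. Of the 24, 14 had no count in any library, both sequences above among them, and 10 had a count. For 9 of those 10, every copy held the same count in every library. The table therefore listed equal counts on copies that reads cannot tell apart, and the source of these counts is uncertain. The snoRNA rows held fewer reads than the host in Gas5 (342 counts over all libraries against 60325), in Snhg1 (138 against 10236) and in Snhg14 (1910 against 110525). Snhg3 went the other way, with 1095 counts on its 2 snoRNAs against 869 on the host. The annotation placed 206 of the 208 snoRNA genes of Snhg14 within introns, but 0 of the 10 of Gas5, 8 of Snhg1 and 5 of Snhg12. Where a snoRNA row overlaps a host exon, how reads on 2 genes were assigned is not given in the sources used here. Of the 237 rows, 6 passed the filter on low counts at RIN 6 or above, and edgeR called none of them in DEX or in DEX+RU486 against control.

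Per kilobase of annotated exon, Gas5 and Snhg8 were the most abundant hosts and Snhg3 the least. In the 10 control libraries of RIN 6 or above, the level was 14 ± 2.69 FPKM for Gas5 and 12.7 ± 1.11 for Snhg8 (mean ± SD, n = 10), where FPKM is TMM-scaled CPM per kilobase. These 2 ranges overlapped, and Gas5 was the higher in 6 of the 10 libraries. Snhg6 followed at 5.42 ± 1.04 FPKM (n = 10), below Snhg8 in each library. Snhg12 (4.16 ± 0.666), Snhg11 (4.13 ± 2.48), Snhg14 (3.59 ± 0.977), Snhg1 (3.13 ± 0.871), Snhg20 (2.02 ± 0.458) and Snhg3 (0.838 ± 0.253) came next in that order, each overlapping its neighbour. Snhg11 ranged from 0.962 to 7.76 FPKM, with batch 1 at the low end. The order of the means was not the same in each batch. In batch 1, Snhg8 (12.9 FPKM) was above Gas5 (12.4), and Snhg11 (2.43) was below Snhg14 (2.95) and Snhg1 (2.53). In batch 2, Gas5 (16.5) was above Snhg8 (12.5), and Snhg11 (6.68) was above Snhg12 (4.76) and Snhg6 (4.70). The exon length includes retained-intron transcripts, 20 of the 25 annotated for Gas5 and 14 of the 18 for Snhg1, so it bears on the order.

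**Figure D1:**
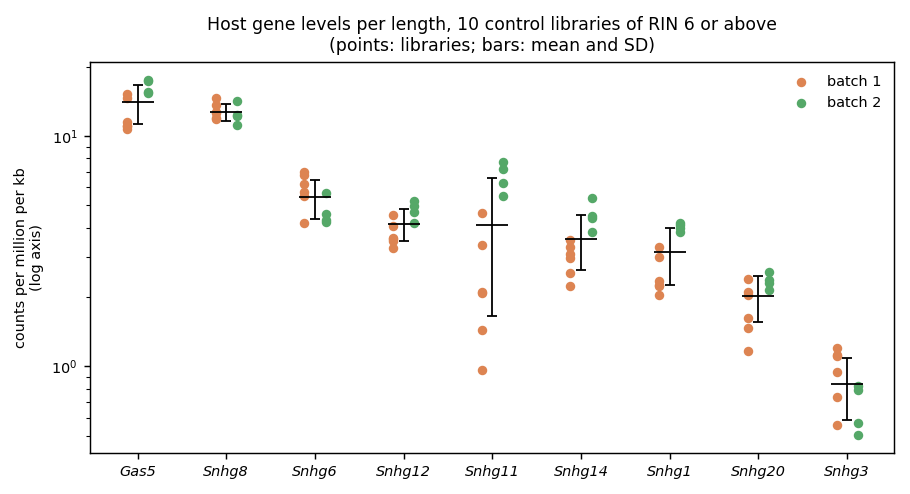
Level of each host in CPM per kilobase of annotated exon (log axis) in the 10 control libraries of RIN 6 or above, 1 point per library coloured by batch, with bars for the mean and SD. Gas5 and Snhg8 lie above the other 7 hosts, and Snhg8 and Snhg6 are the only neighbours in the order without overlap.

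The first comparison asked whether the hosts moved with DEX, given the reported link of Gas5 to the glucocorticoid receptor. Over all 36 libraries every host was a little higher in DEX, by 0.24 to 0.54 on the log2 scale (median 0.33, against -0.007 over all tested genes), and none passed the test. Gas5 ranged from 40.2 to 83.6 CPM in control (median 57.7) and from 56.3 to 104 CPM in DEX (median 65.2). The ranges overlapped, and Gas5 differed by 0.33 on the log2 scale (SE 0.11, adjusted p = 0.135 in edgeR). Under library totals in place of TMM factors the 9 hosts lay between 0.023 and 0.23 (median 0.045), where the median of all genes was -0.27. With TMM factors the test called 5 of 20355 genes (0.0246%) and 0 of the 9 hosts, while 5 hosts had an unadjusted p under 0.05 and DESeq2 also called 0 of the 9 among its 450 genes. Leaving out control library 20 (RIN 1.8) raised the count from 5 to 1630 genes, leaving out control library 19 (RIN 2.7) raised it to 325 and leaving out DEX library 26 (RIN 1.4) to 51, with no host called in any of these.

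**Figure D2:**
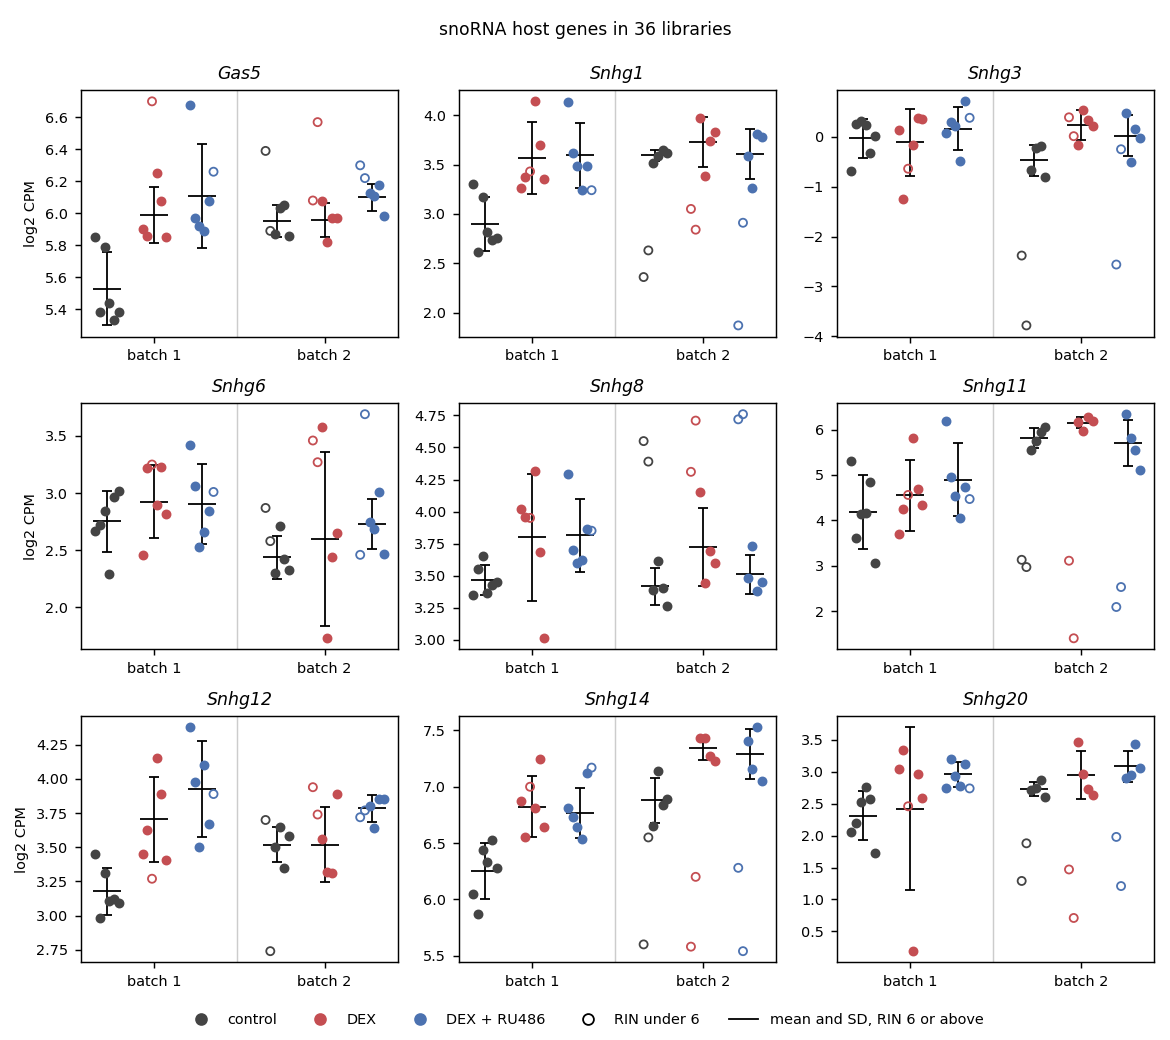
log2 CPM of each host in each of the 36 libraries by batch and group, with filled points for RIN 6 or above, open points for RIN under 6, and bars for the mean and SD of the filled points. Filled DEX points of Snhg14 lie above the control points in both batches, whereas those of Gas5 lie at or above the control points in batch 1 and among them in batch 2.

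At RIN 6 or above, Snhg14, Snhg1 and Snhg8 were higher in DEX than in control, and Gas5 and Snhg12 were just short of the threshold. This is 3 of 9 hosts against 8.06% of all tested genes called higher. Snhg14, the imprinted antisense host, had the smallest p. In batch 1 it ranged from 58.5 to 92.2 CPM in the 6 control libraries (median 79.0) and stood at 93.8, 99.9, 112, 117 and 152 CPM in DEX. In batch 2 it stood at 100, 115, 118 and 141 CPM in control and at 150, 154, 172 and 173 CPM in DEX. The DEX libraries were above every control library in each batch. Snhg14 rose by 0.53 on the log2 scale (SE 0.095, adjusted p = 4.60e-04), and the exact permutation test gave the smallest p it can, 0.00433 in batch 1 and 0.0286 in batch 2. Within single batches it was 0.62 in batch 1 (SE 0.13, adjusted p = 0.00270) and 0.46 in batch 2 (SE 0.11, adjusted p = 0.0654), and no omitted library ended the call in the 28.

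Gas5 was called higher in DEX within batch 1 and was not called within batch 2. Its 6 control libraries stood at 40.2, 41.6, 41.7, 43.3, 55.1 and 57.5 CPM there, and the 5 DEX libraries of RIN 6 or above at 57.5, 58.0, 59.5, 67.6 and 76.0 CPM. The 2 groups touched at 57.5 CPM, and 4 of the 6 control libraries lay between 40.2 and 43.3 CPM. Within batch 1 it rose by 0.49 on the log2 scale (SE 0.14, adjusted p = 0.0183). In batch 2, control libraries stood at 57.9, 58.6, 65.3 and 66.2 CPM and DEX libraries at 56.3, 62.6, 62.8 and 67.6 CPM, which overlapped, and the 2 groups differed by 0.019 (SE 0.079, adjusted p = 0.928). Over both batches it was 0.27 (SE 0.10, adjusted p = 0.0538), and leaving out 1 library gave adjusted p-values between 0.0130 and 0.107, under the threshold in 9 of 28 cases. DESeq2 gave an adjusted p of 0.0232.

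Snhg1, which carries 8 snoRNAs, and Snhg12, which carries 5, were likewise called within batch 1 and not within batch 2. Snhg1 ranged from 6.04 to 9.77 CPM in control of batch 1 (6 libraries) and stood at 9.52, 10.1, 10.3, 12.9 and 17.6 CPM in DEX. In batch 2 it stood at 11.4, 11.9, 12.2 and 12.5 CPM in control and at 10.3, 13.3, 14.1 and 15.6 CPM in DEX. In batch 1 the lowest DEX library lay within the control range, and in batch 2 the lowest lay below it and the other 3 above. Snhg1 was higher by 0.46 over both batches (SE 0.14, adjusted p = 0.0174) and by 0.73 in batch 1 (adjusted p = 0.00930) and differed by 0.16 in batch 2 (adjusted p = 0.587). Snhg12 ranged from 7.82 to 10.9 CPM in batch 1 control and stood at 10.6, 10.9, 12.3, 14.7 and 17.7 CPM in DEX, against 10.1, 11.3, 11.9 and 12.5 CPM in control and 9.83, 9.91, 11.7 and 14.7 CPM in DEX of batch 2. The difference for Snhg12 on the log2 scale was 0.59 in batch 1 (SE 0.16, adjusted p = 0.0146), 0.024 in batch 2 (adjusted p = 0.947) and 0.32 over both (adjusted p = 0.0562). Thus 4 of 9 hosts were called higher in batch 1, where 9.14% of genes were, and 0 of 9 in batch 2, where 0.324% were, with 2 hosts there at an unadjusted p under 0.05.

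Snhg8, host of the H/ACA snoRNA Snora24, was higher in DEX at RIN 6 or above by 0.38 (SE 0.12, adjusted p = 0.0293). It ranged from 10.1 to 12.5 CPM in control of batch 1 and stood at 8.00, 12.8, 15.5, 16.1 and 19.9 CPM in DEX. In batch 2 it stood at 9.50, 10.4, 10.5 and 12.1 CPM in control and at 10.8, 12, 12.8 and 17.7 CPM in DEX. The ranges overlapped in both batches. The call was lost without DEX library 7, 10 or 27. Snhg3, Snhg6, Snhg11 and Snhg20 had log2 fold changes of 0.24 to 0.37 with adjusted p-values of 0.235 to 0.376. For Snhg20, DEX library 7 stood apart with 13 counts and 1.07 CPM, against 5.96 to 10.1 CPM in the other 4 DEX libraries of batch 1. Without that library Snhg20 was called higher (adjusted p = 0.0111).

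The scaling and the tool bear on these counts at RIN 6 or above. DESeq2 called 5 of 9 hosts higher in DEX (11.2% of genes) and 5 of 9 in DEX+RU486 (5.22% of genes). With plain library totals in place of TMM factors, the median of all genes moved from 0.010 to -0.19 for DEX and from 0.030 to -0.14 for DEX+RU486. On that scale all 9 hosts were still positive in both comparisons, and 1 of 9 was called in each, Snhg14 in DEX (0.33, adjusted p = 0.0217, with 3.62% of genes called higher) and Snhg12 in DEX+RU486 (0.39, adjusted p = 0.0274, with 1.03%). Gas5 then had a log2 fold change of 0.069 (adjusted p = 0.638) in DEX and 0.22 (adjusted p = 0.114) in DEX+RU486.

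**Figure D3:**
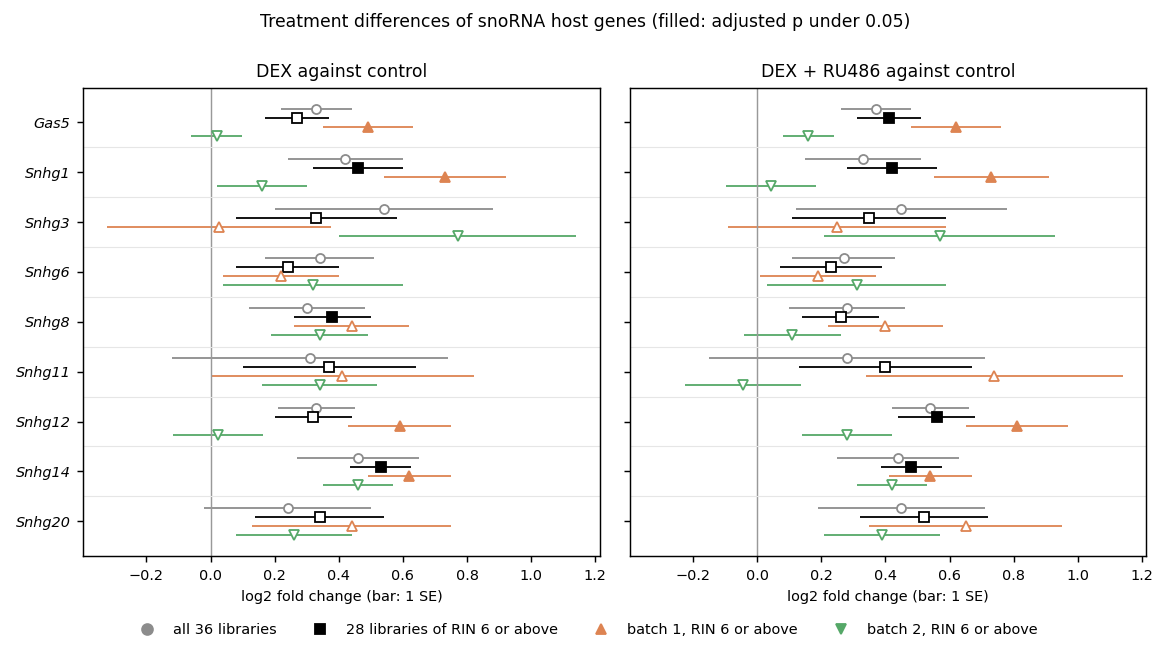
Log2 fold change of each host against control (bars of 1 SE) in DEX, left, and DEX+RU486, right, for all 36 libraries, the 28 of RIN 6 or above, and each batch at RIN 6 or above, filled where the adjusted p was under 0.05 with TMM factors. No circle of the 36 libraries is filled, and Gas5, Snhg1 and Snhg12 are filled in batch 1 and open in batch 2.

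The second comparison asked how the hosts stood when the antagonist was given with DEX, and it shares the control libraries with the first. Over all 36 libraries the 9 hosts were higher in DEX+RU486 than in control by 0.27 to 0.54 on the log2 scale (median 0.37), and by 0.002 to 0.32 with library totals (median 0.13, against -0.20 over all genes). edgeR called 0 of 9 hosts and 0 of 20355 genes (0%), with 3 hosts at an unadjusted p under 0.05, and DESeq2 called 98 genes and 1 host, Snhg12 (adjusted p = 0.00621). Without control library 20, edgeR called 425 genes and Snhg12 (adjusted p = 0.0197).

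In libraries of RIN 6 or above, 4 of 9 hosts were higher in DEX+RU486 than in control, against 3.09% of all tested genes. Snhg12, host of 5 snoRNAs, ranged from 11.2 to 20.7 CPM in the 5 libraries of batch 1 and from 12.4 to 14.4 CPM in the 4 of batch 2, where control stood at 7.82 to 10.9 and 10.1 to 12.5 CPM. The groups were apart in batch 1 and overlapped in batch 2, and Snhg12 rose by 0.56 on the log2 scale (SE 0.12, adjusted p = 0.00461). Gas5 stood at 59.1, 60.3, 62.8, 67.4 and 102 CPM in batch 1, all above the control libraries, and at 63.2, 69.0, 69.9 and 72.4 CPM in batch 2, where 3 of the 4 were above the control range. Over both batches it rose by 0.41 (SE 0.10, adjusted p = 0.0101), with 0.62 in batch 1 (adjusted p = 0.00719) and 0.16 in batch 2 (SE 0.079, adjusted p = 0.691), and no single omission ended the call over the 28 libraries. Of the batch 1 libraries kept, DEX+RU486 library 13 (RIN 6.6) was the highest of its group for Gas5, Snhg1, Snhg8, Snhg11 and Snhg12. DEX library 7 (RIN 6.2) was the highest of its group for the same hosts. Each had the lowest RIN kept in its group, and the part of RIN in these values was not tested.

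Snhg14 and Snhg1 were the other 2. Snhg14 stood at 93.1, 99.3, 106, 112 and 139 CPM in batch 1 and at 133, 143, 170 and 185 CPM in batch 2, above all control libraries in the first and crossing the highest control library in the second. It rose by 0.48 on the log2 scale (SE 0.095, adjusted p = 0.00292). Snhg1 was higher by 0.42 (SE 0.14, adjusted p = 0.0480), a call lost in 17 of 28 omissions of 1 library. It was higher in batch 1 (0.73, adjusted p = 0.0120) and had a log2 fold change of 0.044 in batch 2 (adjusted p = 0.979). Over both batches Snhg20 was not called by edgeR (adjusted p = 0.0909), but it was called higher without DEX library 7 (adjusted p = 0.0110). Within batch 1, 4 of 9 hosts were called higher (6.29% of genes) and within batch 2, 0 of 9 (0% of genes), with 2 hosts at an unadjusted p under 0.05 there. In batch 1 these DEX+RU486 libraries had a RIN of 6.6 to 7.9 and control 7.8 to 9.2, and the part of RIN in the 4 calls was not tested within that batch.

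Directly against DEX, edgeR called 0 of 9 hosts and 0 of 20355 genes (0%) in DEX+RU486, with 0 hosts at an unadjusted p under 0.05 and 2 genes but no host called by DESeq2. The log2 differences lay between -0.091 and 0.21. At RIN 6 or above edgeR again called 0 of 9 hosts and 0 of 20016 genes (0%), with 0 hosts at an unadjusted p under 0.05 and 17 genes by DESeq2. Gas5 differed by 0.14 there (SE 0.10, adjusted p = 0.692) and Snhg12 by 0.24 (SE 0.13, adjusted p = 0.575). These intervals leave room for a difference in either direction, so the hosts are not shown to be equal in the 2 groups.

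No host passed the test of a difference between batches. Over all libraries the interaction was called for 0 of 9 hosts and 0.172% of genes in DEX, and for 0 of 9 and 0.0835% in DEX+RU486. For Gas5 the effect in batch 2 was lower by 0.52 in DEX (unadjusted p = 0.0182, adjusted p = 0.272) and by 0.49 in DEX+RU486 (unadjusted p = 0.0260, adjusted p = 0.343). The largest host value in DEX was that of Snhg3, whose effect in batch 2 was higher by 1.29 (SE 0.65, unadjusted p = 0.0537, adjusted p = 0.398). In DEX+RU486 the Snhg3 effect was higher by 0.48 (adjusted p = 0.845), where the hosts lay between -0.72 and 0.48. With low RIN left out, which removes control libraries of batch 2 with 0 and 2 Snhg3 counts, the DEX value was 0.78 (SE 0.49, unadjusted p = 0.123, adjusted p = 0.429). Snhg3 and Snhg6 had the higher effect in batch 2 in both comparisons, and the other 7 hosts the lower. In the same libraries of RIN 6 or above, Gas5, Snhg1 and Snhg12 had unadjusted p-values of 0.0255, 0.0492 and 0.0275 in DEX, and of 0.0230, 0.0132 and 0.0320 in DEX+RU486, and none passed after adjustment. The Snhg14 interaction was then -0.12 in DEX (adjusted p = 0.810).

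Counted by groups that did not overlap at RIN 6 or above, 1 host was higher in DEX in batch 1 (Snhg14, against 4.29% of genes) and 2 in batch 2 (Snhg3 and Snhg14, against 4.47%). In DEX+RU486, 3 were higher in batch 1 (Gas5, Snhg12 and Snhg14, against 2.44%) and 1 in batch 2 (Snhg20, against 2.80%). Snhg3 was near the limit of the data, with 0 to 76 counts per library. It stood at 0.497, 0.562, 0.782 and 0.810 CPM in control of batch 2 and at 0.825, 1.09, 1.20 and 1.38 CPM in DEX, and it overlapped in batch 1.

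Oligodendrocyte markers moved with DEX in the same libraries. At RIN 6 or above 5 of the 6 were higher in DEX, 4 of 8 neuronal markers were lower, and 3 of 5 astrocyte and 2 of 5 progenitor markers were higher. The summed oligodendrocyte markers ranged from 57.0 to 475 CPM in control, from 451 to 982 CPM in DEX and from 124 to 608 CPM in DEX+RU486, and their part in the host values was not tested. By batch, the sum was 57.0 to 266 CPM in control, 451 to 729 CPM in DEX and 206 to 608 CPM in DEX+RU486 of batch 1. In batch 2 it was 366 to 475, 589 to 982 and 124 to 356 CPM in the same order. In DEX+RU486, 0 of 6 oligodendrocyte markers, 3 of 8 neuronal markers (lower), 0 of 5 astrocyte and 0 of 5 progenitor markers were called by edgeR.

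Some other noncoding hosts were higher as well. Of 12 other noncoding hosts listed by symbol, 9 were in the table and 7 tested at RIN 6 or above, of which 3 were higher in DEX and 3 in DEX+RU486, none lower. Snhg5 was higher by 0.61 in DEX (adjusted p = 7.48e-04) and 0.55 in DEX+RU486 (adjusted p = 0.00457), and Snhg15 by 0.52 (adjusted p = 0.0289) and 0.63 (adjusted p = 0.0189). Zfas1, host of box C/D snoRNAs, was higher in DEX+RU486 by 0.57 (adjusted p = 0.00281) and stood at 0.29 in DEX (adjusted p = 0.0733). The third called in DEX was Epb41l4aos (0.48, adjusted p = 0.0351), which had a log2 fold change of 0.19 in DEX+RU486 (adjusted p = 0.508) and was named after its values were seen. Over all other genes with an annotated snoRNA on their strand, 15 of 262 tested were higher and 56 lower in DEX (median -0.040), and 8 were higher and 34 lower in DEX+RU486 (median -0.047). Over all 20016 tested genes, 1613 were higher and 2397 lower in DEX, and 619 higher and 1200 lower in DEX+RU486. The 235 protein-coding ones had 11 higher and 55 lower in DEX (median -0.050), and the 27 of other biotypes 4 higher and 1 lower (median 0.29).

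Among the 8 core proteins of the snoRNA particles, only Nhp2, of the H/ACA particle, was called, lower by 0.45 in DEX (adjusted p = 0.0109) and with a log2 fold change of -0.41 in DEX+RU486 (adjusted p = 0.0347). Over all 20016 tested genes 2397 were lower in DEX and 1200 in DEX+RU486, so 1 of 8 does not stand out. None of the 11 assembly factors was called in either comparison. Of 15 factors of nonsense-mediated decay, only Smg6, its endonuclease, was higher in DEX (0.24, adjusted p = 0.0152), and none in DEX+RU486. The count of 1 of 15 is near the 8.06% of all tested genes called higher in DEX. None of the 12 genes with a 5′ TOP start outside the ribosomal proteins was called in either (median 0.025 in DEX). Neither corticosteroid receptor gene, Nr3c1 or Nr3c2, was called. Of 5 target genes of the receptor, Per1 (0.45, adjusted p = 0.0373) and Zbtb16 (0.70, adjusted p = 0.0306) were higher in DEX and none in DEX+RU486, where Fkbp5 was lower (-0.44, adjusted p = 0.00990). In DEX the log2 fold changes of the 5 targets ranged from -0.096 to 0.70. Over all 36 libraries edgeR called 0 of these 5 targets in DEX (median 0.26), as it called 0 of the 9 hosts.

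Several hosts differed more between libraries of low and high RIN than between treatments. Within batch 2, the 6 libraries of RIN 1.4 to 2.7 were compared with the 12 of RIN 7.4 to 8.7, with treatment in the model. Snhg11 ranged from 2.57 to 8.68 CPM at low RIN and from 34.7 to 80.7 CPM at high RIN, a difference of -3.32 on the log2 scale (SE 0.22, adjusted p = 9.23e-11). Snhg20 (1.56 to 3.88 against 6.02 to 11 CPM, -1.53), Snhg14 (46.5 to 93.9 against 100 to 185 CPM, -1.20) and Snhg1 (3.59 to 8.19 against 9.51 to 15.6 CPM, -1.04) were lower with it, each with ranges apart. These are 4 of 9 hosts, against 25.7% of all tested genes called lower.

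Snhg8 went the other way, with 19.7 to 27.1 CPM at low RIN and 9.50 to 17.7 CPM at high RIN (0.99, SE 0.12, adjusted p = 2.68e-07). Gas5 was also called higher, by a smaller amount, at 59.2 to 94.9 CPM against 56.3 to 72.4 CPM (0.22, SE 0.092, adjusted p = 0.0476). Its ranges overlapped, and the call was lost without library 19, 26 or 31. These 2 of 9 hosts were called higher, against 30.5% of genes. Snhg3 (-1.08), Snhg6 (0.43) and Snhg12 (-0.006) did not pass. With library totals in place of TMM factors, the median of all genes moved from 0.085 to -0.82 and 54.4% of genes were called lower. On that scale 8 of 9 hosts were called lower and 0 higher. Besides the 4 above these were Gas5 (-0.70, adjusted p = 2.18e-05), Snhg6 (-0.53), Snhg12 (-0.93) and Snhg3 (-2.12, adjusted p = 7.97e-04). Snhg8 stood at 0.081 (adjusted p = 0.641), and the signs of Gas5 and Snhg6 turn with a scaling that moved the median of all genes about as far. Both stood above that median under either scaling.

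**Figure D4:**
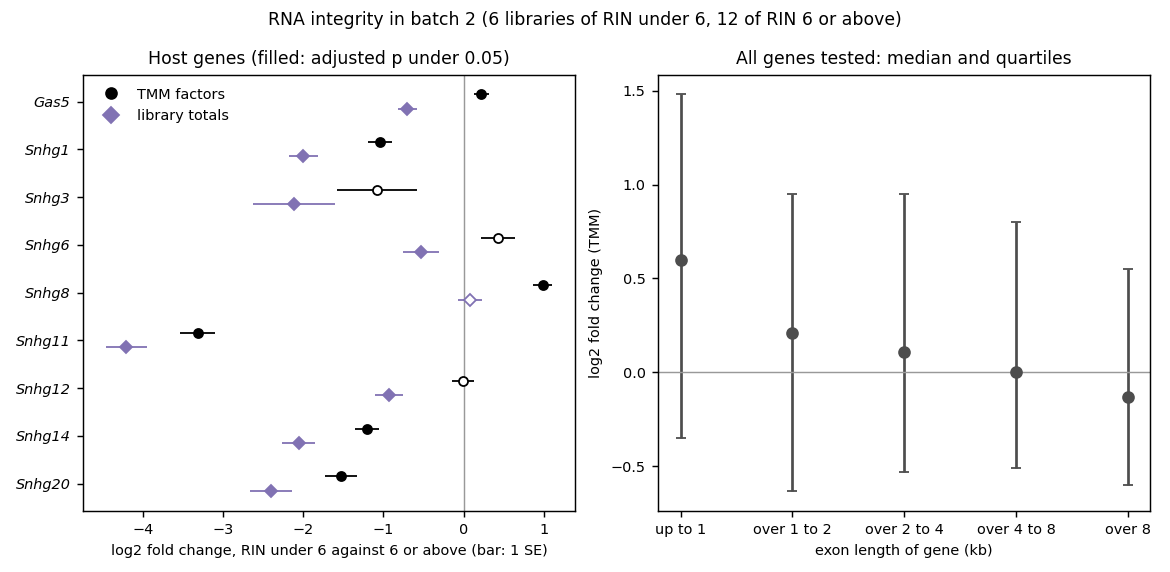
Left, log2 fold change of each host (bars of 1 SE) between the 6 libraries of RIN under 6 and the 12 of RIN 6 or above in batch 2, with TMM factors or library totals, filled where the adjusted p was under 0.05; right, median and quartiles of the same TMM fold change over all tested genes by exon length in kb. Gas5 and Snhg6 are on opposite sides of 0 under the 2 scalings, and the median falls from 0.60 to -0.13 with length.

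The 4 hosts with a pyrimidine run of 5 or more bases at a start shown above, Gas5, Snhg6, Snhg8 and Snhg12, had log2 fold changes of -0.006 to 0.99 at low RIN, and the other 5 had -3.32 to -1.04. This grouping was made after the values were seen, is a description of 9 genes and depends on the start taken, since the upstream Gas5 start and 3 of the 5 Snhg6 transcripts have a run of 0 or 1. Snhg14 is placed among the 5 by a RefSeq start outside its counted span, so the run at its counted start is not known here. The 12 listed 5′ TOP genes outside the ribosomal proteins were all called higher at low RIN (median 1.69), against 30.5% of all tested genes. The part of the start sequence in the host values was not tested. Exon length moved with the contrast as well, from a median of 0.60 for genes of up to 1 kb to -0.13 for those above 8 kb, and its part in the host values was not tested. Neuronal marker sums were also higher at low RIN, 4991 to 9067 CPM against 2019 to 2320 CPM, with 4 of the 8 markers higher and 4 lower. Other cell type markers were called higher there too, 5 of 6 of oligodendrocytes, 4 of 4 of endothelium and mural cells, 3 of 5 of astrocytes, 3 of 5 of progenitors and 2 of 3 tested of microglia, with none lower, and their part in the host values was not tested.

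The control libraries differed by batch before any treatment. Among those of RIN 6 or above, 5 of 9 hosts were higher in batch 2 than in batch 1, against 20.2% of genes. Snhg11 was higher by 1.46 (SE 0.31, adjusted p = 0.00232), with 8.20 to 39.7 CPM in batch 1 and 46.7 to 66.1 CPM in batch 2. Snhg1 (0.69), Snhg14 (0.64), Gas5 (0.43, SE 0.11, adjusted p = 0.00768) and Snhg12 (0.35, adjusted p = 0.0269) were the others. The Snhg12 call was lost without control library 2, 5, 6, 21, 22 or 24, and no omission ended the other 4. All 4 batch 2 control libraries of Gas5 were above all 6 of batch 1, and they stood in the range of the batch 1 DEX libraries. Over all 12 control libraries, with the 2 of low RIN included, only Gas5 was called (0.42), which is 1 of 9 hosts against 15.2% of genes called higher. Markers of other cells moved in the contrast at RIN 6 or above, where 6 of 6 oligodendrocyte, 4 of 5 progenitor and 2 of 3 tested microglial markers were higher in batch 2, 6 of 8 neuronal markers were lower and 2 higher, and 0 of 5 astrocyte markers were called. Their part in the host values was not tested.

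Across the 28 libraries of RIN 6 or above, with the batch means removed, the genes whose log2 CPM was most like that of Gas5 included 2 other hosts. Snhg1 was first of 20354 genes (Pearson r = 0.885) and Snhg12 was at rank 8 (r = 0.842). The rest of the first 10 were Trim17 (0.873), Polk (0.872), Sars (0.861), Shmt2 (0.854), E4f1 (0.851), Atp8b2 (0.846), Trim66 (0.841) and Arid5a (0.840). Sars encodes seryl-tRNA synthetase and Shmt2 a mitochondrial enzyme of serine and one-carbon metabolism. Among the remaining hosts Snhg11 was at rank 302, Snhg8 at 463, Snhg14 at 611, Snhg6 at 1766, Snhg3 at 7865 and Snhg20 at 8647. The libraries share treatment, depth and RIN, so these values describe the 28 libraries only. Without the 2 libraries farthest from the Gas5 median, r with Gas5 was 0.847 for Snhg1 and 0.783 for Snhg12 (n = 26), and Spearman's rho over the 28 was 0.727 and 0.754.

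**Figure D5:**
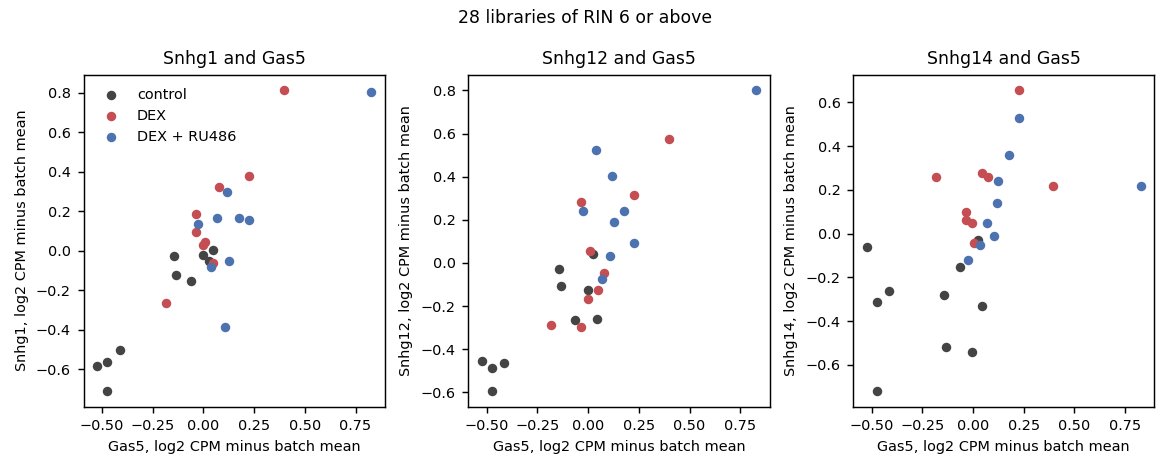
log2 CPM minus the batch mean of Snhg1, Snhg12 and Snhg14 against that of Gas5 in the 28 libraries of RIN 6 or above, 1 point per library coloured by group. Snhg1 (r = 0.885) and Snhg12 (r = 0.842) lie closer to a line with Gas5 than Snhg14 (r = 0.581), with 4 control libraries at the low end of each panel and 1 DEX+RU486 library at the high end.

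Neighbouring and overlapping genes limit what the counts of some hosts can show. Zbtb37 starts on the opposite strand 427 bases downstream of the Gas5 start, and Slc3a2, an amino acid transporter chain, starts 106 bases upstream of Snhg1 on the opposite strand. In libraries of RIN 6 or above Slc3a2 was higher in DEX+RU486 (0.39, adjusted p = 0.0449), and Zbtb37 was not called. Apart from the snoRNA genes above, exons of 4 hosts overlap other annotated genes. Those of Snhg3 overlap Rcc1 on the same strand and Gm17300 on the other, those of Snhg6 overlap Mcmdc2 on the other strand, those of Snhg14 overlap Ube3a on the opposite strand and Gm38393 on its own, and those of Snhg20 hold a scaRNA gene and a miRNA gene. Gm17300 was higher in DEX by 1.05 (adjusted p = 0.00172). Gm44829, which lies inside Snhg14 on the opposite strand with no exon overlap, was higher by 0.64 in DEX (adjusted p = 0.0123) and by 0.56 in DEX+RU486 (adjusted p = 0.0444). Ube3a, which encodes a ubiquitin ligase, had a log2 fold change of 0.002 in DEX and -0.058 in DEX+RU486, with Snhg14 at 0.53 and 0.48. The strand setting of the count is not given in the sources used here, so reads of an antisense pair cannot be told apart if it was unstranded.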

How the data were processed

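The 36 RNAseq libraries came from mouse cortical cells, and each library's group, batch and RIN came from the labels. The values deposited by the authors are raw counts per gene, in 1 table and with no normalization. Per the labels and the paper, reads were aligned to GRCm38 with HISAT2 2.1.0 and counted with Subread 1.5.0-p2. The labels name poly(A) selection, whereas the paper's methods describe a total RNA library. The paper also describes a second alignment to a composite genome, without mismatches and with reads at several places left out. Which of these the table holds, the annotation release, the strand setting and the treatment of reads that overlap 2 genes are not given in the sources used here. Of 55492 rows, 5 are named as transgenes and were left out of every test, and 55227 gene rows matched GENCODE M21, which gave symbols and exon lengths.

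The test was edgeR 4.0.16 under R 4.3.3 on genes with a mean count above 5 (TMM factors, quasi-likelihood test, group and batch as terms, all 3 groups in 1 model), with Benjamini-Hochberg adjustment over all tested genes and a threshold of 0.05. The same model was fitted to the 28 libraries of RIN 6 or above, to each batch, and with an interaction of group and batch. Low and high RIN were compared in batch 2 with treatment as a term. The SE is the size of the log2 fold change divided by the square root of F. CPM used TMM factors, with a prior count of 2 on the log2 scale, and exact permutation tests were two-sided and within batch (scipy 1.17.1, numpy 2.4.6, pandas 2.3.3). FPKM is CPM per kilobase of exon. Depth was 12.1 to 82.4 M counts per library, which limits the precision of Snhg3 above all. No 2 libraries held identical counts. Promoter windows came from RefSeq on GRCm38.p6, where 8 of the 9 genes matched, and figures were drawn with matplotlib 3.10.9.

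The members and gene lists were chosen with earlier results of these data known. Named genes are the 9 hosts, 5 receptor targets, up to 3 genes of each list with the smallest p for DEX over all 36 libraries, the 10 genes most like Gas5, genes starting within 1000 bases on the opposite strand, and genes or snoRNAs overlapping a host. Genes overlapping a host were added to the rule after the data were seen, and the text gives the called ones and those with a role in it. The fit was tested on simulated data for DEX against control at RIN 6 or above, drawn for the 20355 genes that pass the filter over all libraries. It recovered 99 of 100 genes changed 4-fold and 83 of 100 changed 2-fold, and it called 12 of 20155 unchanged genes. Changes as small as those of the hosts in DEX (0.24 to 0.53 on the log2 scale) were not simulated. How often the fit would call changes of that size is therefore not known. No difference of batch or RIN was put into the simulated libraries. Alternatives were DESeq2 1.42.0, upper-quartile factors, library totals, other filters and model terms, RIN as a covariate, single batches, the 2 groups alone, and each library left out in turn. The alternatives at RIN 6 or above, library totals and the batches at RIN 6 or above were chosen after seeing the data.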

Additional observations from a re-analysis of the deposited data

Results flagged for a closer look

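Over 54 groups (each host in each treatment and batch, 6 libraries a group), a gap test at the 95% level picked 5 libraries that stood apart from the rest of their group, and chance picks about 1 group in 20. Of the 5, 4 were batch 2 libraries of low RIN. Gas5 was highest in control library 19 (83.6 CPM, RIN 2.7, the others 57.9 to 66.2 CPM) and in DEX library 26 (94.9 CPM, RIN 1.4, the others 56.3 to 67.8 CPM). Snhg12 was lowest in control library 20 (6.62 CPM, RIN 1.8, the others 10.1 to 12.9 CPM), and Snhg3 in DEX+RU486 library 31 (0.0971 CPM, RIN 1.5, the others 0.636 to 1.31 CPM). Snhg20 was lowest in DEX library 7 of batch 1 (1.07 CPM, RIN 6.2, the others 5.44 to 10.1 CPM), and this library decides the Snhg20 call at RIN 6 or above. Outside the gene rows, the transgene row named egfp held up to 12 counts in a DEX library and up to 13 in a DEX+RU486 library, against up to 7 in a control library. The row named eyfp went the other way, with up to 7 counts in a control library, up to 4 in a DEX+RU486 library and 0 in DEX, and no transgene is part of the design.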

How the results depend on the processing

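No paired analysis was possible because the library numbers run from 1 to 36 and no number is shared between groups. For DEX against control over all libraries, the count of 0 hosts and 5 genes became 2 hosts and 455 genes with RIN as a covariate, 3 and 4010 at RIN 6 or above, 4 and 3773 in batch 1, and 4 and 3876 in batch 1 at RIN 6 or above. Gene counts were 450 with DESeq2, 116 in batch 2 at RIN 6 or above, 1 with the 2 groups alone, and 0 without the batch term or in batch 2. For DEX+RU486 against control, 0 hosts and 0 genes became 1 and 98 with DESeq2, 1 and 155 with RIN as a covariate, 4 and 1819 at RIN 6 or above, 4 and 3145 in batch 1, 4 and 2821 in batch 1 at RIN 6 or above, and 0 and 1 in batch 2 at RIN 6 or above. Against DEX, genes numbered 2 with DESeq2 and 314 in batch 2 at RIN 6 or above. At RIN 6 or above, hosts called in DEX numbered 5 with DESeq2 or upper-quartile factors and 1 with library totals, and in DEX+RU486 1 with library totals, where 3149 genes were called. Against DEX there, 17 genes were called with DESeq2 and 2 with library totals. No filter on low counts gave 21169 genes in the RIN contrast, where more genes were tested, and all control libraries gave 1 host in the batch contrast. Leaving out 1 library gave 0 to 1630 genes in DEX and 0 to 425 in DEX+RU486 with 0 to 1 hosts, the highest without control library 20. At RIN 6 or above it gave 2 to 5 hosts and 2861 to 4096 genes in DEX, 3 to 5 hosts and 869 to 2143 genes in DEX+RU486, and 0 to 1 genes against DEX. DEX reached 5 hosts without control library 1 or 22, DEX library 28 or 29, or DEX+RU486 library 13, 15 or 17, and the DEX+RU486 genes fell most without DEX+RU486 library 15 or 17 or control library 2 or 5. It gave 4 to 7 hosts and 6283 to 8751 genes in the batch contrast, and 5 to 7 hosts and 11134 to 12360 genes in the RIN contrast. Directions turned as follows, and of these the Gas5 and Snhg6 values of the RIN contrast passed the test. For DEX, Snhg3 was -0.066 in batch 1 (-0.17 in the exact test), and in the exact test in batch 2 Snhg11 was -0.040 and Snhg20 -0.022. For DEX+RU486, Snhg11 was -0.082 in batch 2 (-0.044 at RIN 6 or above, -0.32 in the exact test) and Snhg1 -0.022 in the exact test. Against DEX, Snhg1 was 0.005 in batch 1 at RIN 6 or above, Snhg3 0.014 at RIN 6 or above, 0.35 in batch 1 (0.40 in the exact test) and 0.22 in batch 1 at RIN 6 or above, Snhg8 0.008 with RIN as a covariate, Snhg11 0.035 at RIN 6 or above, 0.27 in batch 1, 0.33 in batch 1 at RIN 6 or above and 0.002 with library totals, and Snhg14 0.019 with library totals. In the exact test at RIN 6 or above, set against the fit over both batches there, Snhg3 was -0.081 (batch 1) and Snhg12 -0.002 (batch 2) for DEX, Snhg11 -0.11 (batch 2) for DEX+RU486, and against DEX Snhg1 was 0.026 and Snhg8 0.015 in batch 1 and Snhg3 -0.21, Snhg6 0.13 and Snhg11 -0.44 in batch 2. At RIN 6 or above, Snhg3 was -0.007 with DESeq2 and Snhg6 0.006 with library totals. In the RIN contrast, library totals gave -0.70 for Gas5 and -0.53 for Snhg6, and Snhg12 was 0.062 with DESeq2, 0.15 with upper-quartile factors and 0.001 without treatment. In the batch contrast Snhg8 was 0.061 with upper-quartile factors and 0.31 over all control libraries. Omitting 1 library gave ranges across 0 against DEX for Gas5 (-0.035 to 0.11), Snhg3 (-0.19 to 0.019), Snhg6 (-0.17 to 0.011), Snhg11 (-0.26 to 0.13), Snhg14 (-0.11 to 0.056) and Snhg8 (-0.12 to 0.045), at RIN 6 or above for Snhg1 (-0.16 to 0.051), Snhg3 (-0.11 to 0.084), Snhg6 (-0.12 to 0.14) and Snhg11 (-0.27 to 0.23), and for Snhg12 in the RIN contrast (-0.072 to 0.12) and Snhg8 in the batch contrast (-0.11 to 0.022). The cause was not tested. Depth limits Snhg3, which had 0 to 76 counts.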

Other observations

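Even though 208 of the 237 snoRNA genes inside the hosts lie in Snhg14, their annotated lengths fall mostly into 2 classes, 130 of 79 bases and 68 of 94 bases. Both C and D box letters were found in 189 of the 208, and in 6 of the 10 snoRNA genes of Gas5 and 6 of the 8 of Snhg1. The ACA letters before the end were found in both snoRNA genes of Snhg3, in that of Snhg8 and in 3 of the 5 of Snhg12. The search took exact letters, and variant boxes were not searched.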
